A study of Mus musculus with 30 samples.

Results

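The transcripts described here are those of 8 genes that write, maintain or oxidise cytosine methylation: Dnmt1, Uhrf1, Dnmt3a, Dnmt3b, Dnmt3l, Tet1, Tet2 and Tet3. They were chosen by gene symbol, and each of the 8 matched exactly 1 of the 65534 rows of the deposited table. RNA came from germ cells enriched from the testes of male mice, in 30 libraries of polyadenylated RNA from 14 litters. The groups were Prdm9-/-, Prdm9+/- and Prdm9+/+, each at 8, 12 and 16 days post partum (dpp). All animals were C57BL/6J with a minor contribution of 129S1/SvImJ, and no other allele or treatment is given in the labels. Prdm9 encodes the meiotic histone methyltransferase that places recombination sites, and the study compared transcript abundance in spermatogenesis with and without it. At 8 dpp there were 5 Prdm9-/-, 2 Prdm9+/- and 3 Prdm9+/+ libraries, at 12 dpp 5 Prdm9-/-, 4 Prdm9+/- and 1 Prdm9+/+, and at 16 dpp 5 Prdm9-/-, 3 Prdm9+/- and 2 Prdm9+/+. The Prdm9+/- and Prdm9+/+ libraries of an age are together called non-mutant, which gives 5 libraries against 5 at every age. Levels are in TPM, each gene's share of a library's transcripts on a fixed scale, which allows for transcript length, so levels of different genes can be set side by side. TPM keeps no read number, so the depth behind each value is unknown.

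CpG methylation is copied at replication by DNMT1, which UHRF1 brings to hemimethylated sites. DNMT3A and DNMT3B place methylation on unmethylated DNA, and DNMT3L, which has no catalytic activity of its own, stimulates both. TET1, TET2 and TET3 oxidise 5-methylcytosine, the first step of its removal. In the male mouse germ line methylation is set up before birth, in prospermatogonia, where Dnmt3l is known for its high expression, and it is then maintained through the divisions of spermatogonia and the S phase before meiosis. The ages sampled cover spermatogonia at 8 dpp, the start of meiosis at 12 dpp and, in animals with Prdm9, the arrival of pachytene spermatocytes by 16 dpp.

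Starts of transcription annotated by RefSeq on GRCm38.p6 gave 15 windows of 300 bases for the 8 genes, 250 bases before each start and 50 after it. Windows are shown for a pair called in no comparison, Dnmt1 and Uhrf1, and for the pair called lower at 16 dpp in both genotype classes, Dnmt3a and Tet3. Where a gene has more than 1 window, the one shown has the most motif matches. Capitals mark an E2F-type motif (TTTGGCGC or TTTCGCGC) or a GC box (GGGCGG), each searched on both strands. The Dnmt1 window is chr9:20952574-20952873 on the minus strand, the Uhrf1 window chr17:56304063-56304362 on the plus strand, the Dnmt3a window chr12:3806910-3807209 on the plus strand and the Tet3 window chr6:83441629-83441928 on the minus strand. Each is printed 5′ to 3′ along its gene.
Dnmt1: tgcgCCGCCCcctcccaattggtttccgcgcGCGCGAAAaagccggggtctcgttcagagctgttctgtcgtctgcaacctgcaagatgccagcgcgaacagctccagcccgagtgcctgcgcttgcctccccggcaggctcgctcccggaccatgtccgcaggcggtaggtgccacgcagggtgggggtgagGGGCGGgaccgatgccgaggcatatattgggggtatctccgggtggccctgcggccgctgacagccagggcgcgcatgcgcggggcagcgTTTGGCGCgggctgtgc
Uhrf1: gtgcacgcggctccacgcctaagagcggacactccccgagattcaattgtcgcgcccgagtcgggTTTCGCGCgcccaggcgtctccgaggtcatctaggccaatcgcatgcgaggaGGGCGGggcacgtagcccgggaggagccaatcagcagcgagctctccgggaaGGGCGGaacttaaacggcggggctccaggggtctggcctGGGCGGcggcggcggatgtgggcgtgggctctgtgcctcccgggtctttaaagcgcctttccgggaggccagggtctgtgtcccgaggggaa
Dnmt3a: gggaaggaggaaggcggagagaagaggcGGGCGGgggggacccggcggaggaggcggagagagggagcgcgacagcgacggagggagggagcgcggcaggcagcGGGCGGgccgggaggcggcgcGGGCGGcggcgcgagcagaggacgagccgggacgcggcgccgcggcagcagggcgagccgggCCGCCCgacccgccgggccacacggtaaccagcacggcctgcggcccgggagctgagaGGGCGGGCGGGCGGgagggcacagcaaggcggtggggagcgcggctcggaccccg
Tet3: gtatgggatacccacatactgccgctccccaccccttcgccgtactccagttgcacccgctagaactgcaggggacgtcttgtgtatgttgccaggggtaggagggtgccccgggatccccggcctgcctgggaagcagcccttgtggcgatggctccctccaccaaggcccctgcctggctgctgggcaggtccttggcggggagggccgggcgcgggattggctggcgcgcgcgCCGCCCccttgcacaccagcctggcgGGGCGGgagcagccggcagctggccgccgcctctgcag

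An E2F-type motif was in 2 of the 15 windows, the Dnmt1 window with 2 matches and the Uhrf1 window with 1, against 0.813% of all 32851 promoter windows of the same length. A GC box was in 12 of the 15 windows, against 35.7% of all windows. Dnmt3a held 7 of them in the window shown, where matches overlap by 4 bases, and Tet3 held 2. The 15 windows belong to 8 genes, and 2 of the Dnmt3a windows overlap and share matches, so the windows are not independent. These shares do not allow for CpG content. An E-box (CACGTG) was in 2 of the 15 windows, 1 of Dnmt3l and 1 of Dnmt3a, against 7.15% of all. The windows of these genes ranged from 2 to 57 CpG pairs, with a median of 7 over all windows. Tet2 had the 57, more than 99.8% of windows, and the Dnmt3a window shown had 47, more than 98.6%. Dnmt3l was CpG-poor at its 3 annotated starts, with 6, 4 and 3. A match of letters is a description of the sequence. Dnmt1 and Dnmt3a have 3 annotated starts each and Uhrf1 has 2, and the gene-level TPM sums over them. The windows of Dnmt1 that are not shown had no match and 2 and 12 CpG pairs. That of Uhrf1 had no E2F-type motif, 1 GC box and 12 CpG pairs, and those of Dnmt3a had 6 and 2 GC boxes. A link of these motifs to the calls was not tested.

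The genes lie apart in the genome. In GENCODE M21 on GRCm38, Dnmt1 (ENSMUSG00000004099) spans chr9:20907209-20959888, Uhrf1 (ENSMUSG00000001228) chr17:56303321-56323486, Dnmt3a (ENSMUSG00000020661) chr12:3806007-3914443 and Dnmt3b (ENSMUSG00000027478) chr2:153649450-153687730. Dnmt3l (ENSMUSG00000000730) spans chr10:78041947-78063622, Tet1 (ENSMUSG00000047146) chr10:62804570-62908996, Tet2 (ENSMUSG00000040943) chr3:133463679-133545139 and Tet3 (ENSMUSG00000034832) chr6:83362373-83459084. Genes on the opposite strand overlap Dnmt3a, Dnmt3b, Dnmt3l, Tet2 and Tet3. Whether the counting used strand is not given in the sources used here, so reads of Dnmt3l and its antisense neighbour Aire, for example, cannot be told apart. Dnmt3c, a rodent paralogue of Dnmt3b that lies just downstream of it at chr2:153696652-153729907, was at 0.60 to 3.13 TPM over the 30 libraries against 19.2 to 49.1 TPM for Dnmt3b, and reads shared between the 2 copies make both values uncertain.

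Prdm9 itself was measured as a check of the labels. At 16 dpp it was at 6.89 to 12.8 TPM in Prdm9-/- libraries and 19.7 to 34.4 TPM in non-mutant libraries, a difference of -1.24 in log2(TPM + 1) (SE 0.26, adjusted p = 0.00352, limma). At 12 dpp it was at 6.34 to 19.2 TPM in Prdm9-/- and 9.16 to 23.3 TPM in non-mutant libraries, a difference of -0.91 (SE 0.26) that did not pass the test (adjusted p = 1, limma). At 8 dpp it was at 4.77 to 8.98 TPM in Prdm9-/- and 1.82 to 6.10 TPM in non-mutant libraries, a difference of 0.55 (SE 0.26, adjusted p = 1, limma) in the direction against the labels, so Prdm9 gives no check of the labels at 8 dpp. A transcript remains in the animals labelled Prdm9-/- at all 3 ages. In litter 13 at 12 dpp, the library labelled Prdm9-/- replicate 5 had 19.2 TPM and its litter mate labelled Prdm9+/- replicate 4 had 9.16 TPM, against their labels. The limma tests of the 8 genes that involve 12 dpp were therefore also computed without that litter. Ranges, ratios, profile distances, Dixon's criterion, marker lists and related lists were computed with it kept. The label of enriched germ cells was checked against marker genes. All 10 Sertoli cell markers were over 1 TPM in every group, with sums of 6086 to 7244 TPM in Prdm9-/- and 5994 to 6596 TPM in non-mutant libraries at 16 dpp, so the libraries hold somatic RNA beside that of germ cells. In such bulk RNA, fewer cells of a type and less RNA per cell cannot be told apart.

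Dnmt1 had the highest mean level of the 8 genes in all 6 groups of age and genotype class, and Dnmt3l had the lowest. Over the 30 libraries the median was 88.9 TPM for Dnmt1, 73.9 for Dnmt3a, 69.7 for Uhrf1, 42.4 for Tet3, 33.7 for Dnmt3b, 5.39 for Tet2, 3.72 for Tet1 and 1.43 for Dnmt3l. Dnmt3a ranked just below Dnmt1 in the Prdm9-/- groups at 8 and 12 dpp and in the non-mutant group at 8 dpp. Uhrf1 held that rank in the other 3 groups, which include both groups at 16 dpp. At 16 dpp the ranges of Uhrf1 and Dnmt3a were separate in both classes, and those of Dnmt1 and Uhrf1 overlapped. Tet3 and Dnmt3b overlapped in every group except non-mutants at 8 dpp. Dnmt3b and Tet2 never did. Among the TET genes, Tet3 was thus the most abundant throughout, and Tet2 and Tet1 overlapped at 8 dpp only.

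**Figure D1:**
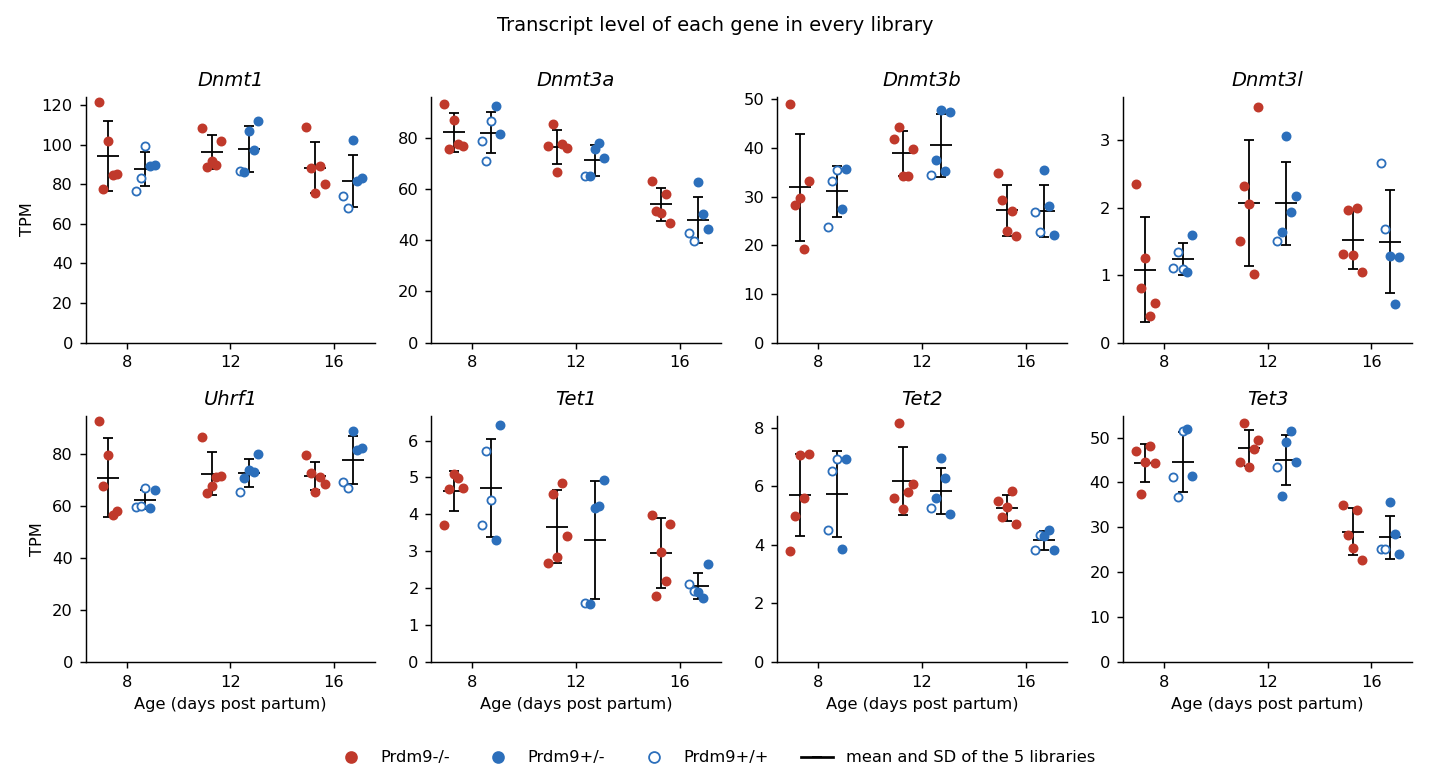
TPM of each of the 8 genes (vertical axis, from 0, own scale per panel) against age in days post partum, 1 point per library, Prdm9-/- left of the non-mutant libraries, with the mean and SD of each group of 5. Dnmt3a and Tet3 sit lowest at 16 dpp in both genotype classes, while Dnmt1 and Uhrf1 lie between 56.4 and 121 TPM throughout.

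Dnmt1, the maintenance methyltransferase, passed the test in no comparison with all libraries included. At 8 dpp Dnmt1 was at 121, 77.7, 102, 84.5 and 85.2 TPM in the Prdm9-/- libraries, against 89.2 and 89.6 TPM in the Prdm9+/- and 76.5, 83.2 and 99.5 TPM in the Prdm9+/+ libraries. Dnmt1 at 12 dpp gave 108, 88.7, 91.7, 89.7 and 102 TPM in Prdm9-/-, against 86.3, 107, 97.4 and 112 TPM in Prdm9+/- and 86.6 TPM in Prdm9+/+. By 16 dpp Dnmt1 had 109, 88.1, 75.4, 89.0 and 80.0 TPM in Prdm9-/- libraries, 102, 81.4 and 82.9 TPM in Prdm9+/- libraries and 74.2 and 67.7 TPM in the Prdm9+/+ libraries. The values of Dnmt1 overlapped between the classes at every age, and between all ages within each class. The highest was Prdm9-/- replicate 1 at 8 dpp, and at 16 dpp the highest of each class were litter mates, both of litter 2. Its group means ran from 81.7 ± 13.1 TPM in non-mutants at 16 dpp to 97.7 ± 11.5 TPM in non-mutants at 12 dpp (SD, n = 5).

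Uhrf1, whose product recognises hemimethylated CpG and recruits DNMT1, was the only one of the 8 whose non-mutant mean was highest at 16 dpp. At 8 dpp Uhrf1 was at 92.5, 67.5, 79.4, 56.4 and 58.0 TPM in the Prdm9-/- libraries, against 59.2 and 66.0 TPM in the Prdm9+/- and 59.6, 59.9 and 66.7 TPM in the Prdm9+/+ libraries. Uhrf1 at 12 dpp gave 86.5, 64.9, 67.7, 70.9 and 71.4 TPM in Prdm9-/-, against 70.4, 73.5, 72.9 and 80.0 TPM in Prdm9+/- and 65.1 TPM in Prdm9+/+. By 16 dpp Uhrf1 had 79.6, 72.5, 65.3, 71.0 and 68.4 TPM in Prdm9-/- libraries, 88.5, 81.5 and 82.1 TPM in Prdm9+/- libraries and 68.9 and 66.8 TPM in the Prdm9+/+ libraries. In non-mutants all 5 libraries at 16 dpp lay above all 5 at 8 dpp. In Prdm9-/- libraries the ages overlapped, and replicate 1 at 8 dpp, at 92.5 TPM, exceeded every later value. The 16 minus 12 dpp difference in log2(TPM + 1) was -0.01 (95% interval -0.23 to 0.20) in Prdm9-/- and 0.09 (-0.12 to 0.31) in non-mutant libraries.

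Dnmt3a, a de novo methyltransferase, was lowest at 16 dpp in both classes. At 8 dpp Dnmt3a was at 93.3, 75.6, 87.0, 77.7 and 76.6 TPM in the Prdm9-/- libraries, against 92.3 and 81.5 TPM in the Prdm9+/- and 78.7, 70.9 and 86.7 TPM in the Prdm9+/+ libraries. Dnmt3a at 12 dpp gave 76.7, 85.5, 66.6, 77.6 and 76.0 TPM in Prdm9-/-, against 65.2, 75.6, 77.8 and 72.2 TPM in Prdm9+/- and 64.9 TPM in Prdm9+/+. By 16 dpp Dnmt3a had 63.2, 51.2, 50.5, 57.9 and 46.8 TPM in Prdm9-/- libraries, 62.7, 50.2 and 44.3 TPM in Prdm9+/- libraries and 42.9 and 39.8 TPM in the Prdm9+/+ libraries. Within each class, every 16 dpp library lay below every 12 dpp and every 8 dpp library. The classes overlapped at each age. Group means at 16 dpp were 54.0 ± 6.56 TPM in Prdm9-/- and 48.0 ± 9.05 TPM in non-mutants, and at 12 dpp 76.5 ± 6.72 TPM in Prdm9-/- and 71.2 ± 5.91 TPM in non-mutants (SD, n = 5 each).

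Dnmt3b, the other de novo enzyme, had its highest group means at 12 dpp. At 8 dpp Dnmt3b was at 49.1, 28.2, 29.8, 19.2 and 33.1 TPM in the Prdm9-/- libraries, against 27.5 and 35.6 TPM in the Prdm9+/- and 23.8, 33.1 and 35.5 TPM in the Prdm9+/+ libraries. Dnmt3b at 12 dpp gave 41.8, 44.4, 34.2, 34.2 and 39.8 TPM in Prdm9-/-, against 37.6, 47.7, 35.3 and 47.4 TPM in Prdm9+/- and 34.5 TPM in Prdm9+/+. By 16 dpp Dnmt3b had 35.0, 29.3, 22.9, 27.1 and 21.9 TPM in Prdm9-/- libraries, 35.5, 28.1 and 22.1 TPM in Prdm9+/- libraries and 26.9 and 22.6 TPM in the Prdm9+/+ libraries. The classes overlapped at every age. The non-mutant 16 dpp libraries overlapped the 12 dpp ones by a single library, Prdm9+/- replicate 1 of litter 2, and in Prdm9-/- the overlap was likewise made by replicate 1 of litter 2. The 8 dpp Prdm9-/- libraries were the most scattered, with a mean of 31.9 ± 10.9 TPM (SD, n = 5), replicate 1 highest and replicate 4 lowest.

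Dnmt3l, the cofactor without catalytic activity, was the lowest of the 8 and close to the 1 TPM used as the filter on low values. At 8 dpp Dnmt3l was at 2.35, 0.81, 1.26, 0.4 and 0.59 TPM in the Prdm9-/- libraries, against 1.04 and 1.6 TPM in the Prdm9+/- and 1.1, 1.35 and 1.09 TPM in the Prdm9+/+ libraries. Dnmt3l at 12 dpp gave 1.5, 2.32, 2.05, 1.01 and 3.49 TPM in Prdm9-/-, against 1.64, 3.06, 1.93 and 2.18 TPM in Prdm9+/- and 1.51 TPM in Prdm9+/+. By 16 dpp Dnmt3l had 1.31, 1.97, 1.3, 1.99 and 1.04 TPM in Prdm9-/- libraries, 1.28, 0.57 and 1.27 TPM in Prdm9+/- libraries and 2.66 and 1.69 TPM in the Prdm9+/+ libraries. The classes and the ages overlapped throughout. Its group means were highest at 12 dpp, at 2.07 ± 0.94 TPM in Prdm9-/- and 2.06 ± 0.61 TPM in non-mutants (SD, n = 5 each).

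Tet1 and Tet2 were expressed at a few TPM. At 8 dpp Tet1 was at 3.71, 4.69, 5.09, 4.98 and 4.71 TPM in the Prdm9-/- libraries, against 3.3 and 6.42 TPM in the Prdm9+/- and 3.72, 5.72 and 4.39 TPM in the Prdm9+/+ libraries. Tet1 at 12 dpp gave 2.67, 4.55, 2.85, 4.86 and 3.42 TPM in Prdm9-/-, against 1.57, 4.16, 4.22 and 4.94 TPM in Prdm9+/- and 1.59 TPM in Prdm9+/+. By 16 dpp Tet1 had 3.99, 1.8, 2.98, 2.2 and 3.74 TPM in Prdm9-/- libraries, 1.89, 1.74 and 2.65 TPM in Prdm9+/- libraries and 2.1 and 1.93 TPM in the Prdm9+/+ libraries. In non-mutants all 5 Tet1 values at 16 dpp lay below all 5 at 8 dpp, with the 12 dpp values spread over both ranges. In Prdm9-/- libraries the ages overlapped.

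At 8 dpp Tet2 was at 3.77, 4.98, 7.05, 5.61 and 7.08 TPM in the Prdm9-/- libraries, against 3.84 and 6.91 TPM in the Prdm9+/- and 4.49, 6.53 and 6.93 TPM in the Prdm9+/+ libraries. Tet2 at 12 dpp gave 5.61, 8.17, 5.21, 5.81 and 6.06 TPM in Prdm9-/-, against 5.58, 6.96, 6.28 and 5.06 TPM in Prdm9+/- and 5.27 TPM in Prdm9+/+. By 16 dpp Tet2 had 5.49, 4.94, 5.28, 5.82 and 4.72 TPM in Prdm9-/- libraries, 4.31, 4.52 and 3.81 TPM in Prdm9+/- libraries and 3.82 and 4.34 TPM in the Prdm9+/+ libraries. At 16 dpp every Prdm9-/- library lay above every non-mutant library, 4.72 to 5.82 against 3.81 to 4.52 TPM. At 8 and 12 dpp the classes overlapped, as they did for all 8 genes (0.18% and 0.2% of all rows did not overlap). In non-mutants the 16 dpp values lay below all 12 dpp values, whereas in Prdm9-/- they overlapped them.

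Tet3, the most abundant of the 3 dioxygenases, was lowest at 16 dpp, as Dnmt3a was. At 8 dpp Tet3 was at 47.0, 37.3, 44.6, 48.1 and 44.4 TPM in the Prdm9-/- libraries, against 51.9 and 41.3 TPM in the Prdm9+/- and 41.3, 36.7 and 51.4 TPM in the Prdm9+/+ libraries. Tet3 at 12 dpp gave 44.4, 53.2, 43.4, 47.5 and 49.5 TPM in Prdm9-/-, against 36.9, 48.9, 51.4 and 44.5 TPM in Prdm9+/- and 43.5 TPM in Prdm9+/+. By 16 dpp Tet3 had 35.1, 28.3, 25.4, 33.9 and 22.7 TPM in Prdm9-/- libraries, 35.7, 28.4 and 24.2 TPM in Prdm9+/- libraries and 25.3 and 25.1 TPM in the Prdm9+/+ libraries. In both classes every 16 dpp value lay below every 12 dpp and every 8 dpp value. The means at 16 dpp were 29.1 ± 5.33 TPM in Prdm9-/- and 27.7 ± 4.73 TPM in non-mutants, and at 12 dpp 47.6 ± 3.99 TPM in Prdm9-/- and 45.1 ± 5.59 TPM in non-mutants (SD, n = 5 each).

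Between 12 and 16 dpp the transcripts of a de novo enzyme and of the main TET gene fell in both genotype classes. Tests were run with limma on log2(TPM + 1) across 20021 rows, with Benjamini-Hochberg adjustment over all of them and a call under 0.05, and all 8 genes passed the filter on low values. In Prdm9-/- libraries 2 of the 8 were called lower at 16 dpp than at 12 dpp and 0 higher, where 5.89% of all rows were called lower, 6.21% higher and 12.1% either way. Tet3 fell by 0.71 (SE 0.12, adjusted p = 0.000192, limma) on the log2(TPM + 1) scale, a ratio of 0.612, and Dnmt3a fell by 0.50 (SE 0.10, adjusted p = 0.00134, limma), a ratio of 0.708. In non-mutant libraries 3 of the 8 were called lower and 0 higher, where 13% of all rows were called lower, 8.88% higher and 21.8% either way (7.88% lower and 13.1% higher with median-ratio scaling). There Tet3 fell by 0.69 (ratio 0.622, SE 0.12, adjusted p = 0.000116, limma) and Dnmt3a fell by 0.57 (ratio 0.672, SE 0.10, adjusted p = 0.000133, limma). Dnmt3b fell by 0.57 in non-mutants (SE 0.17, adjusted p = 0.0174, limma) and had a difference of -0.51 in Prdm9-/- libraries (SE 0.17, adjusted p = 0.0508, limma). The remaining differences in Prdm9-/- ran from -0.25 for Tet1 and Dnmt3l to -0.01 for Uhrf1, and in non-mutants from -0.40 for Tet1 and Tet2 to 0.09 for Uhrf1. With Prdm9+/+ as the only non-mutants those of Tet1 and Dnmt3l had the other sign (Tet1 0.22, against -0.40 with all non-mutants, and Dnmt3l 0.32, against -0.33). The median difference of the 8 genes was -0.25 in Prdm9-/- and -0.40 in non-mutants, against medians over all rows of -0.0035 in Prdm9-/- and -0.086 in non-mutants.

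By the ranges of the libraries, 2 of the 8 genes lay wholly below their 12 dpp range at 16 dpp in Prdm9-/- (Dnmt3a and Tet3), where 5.77% of all rows did, and 3 in non-mutants (Dnmt3a, Tet2 and Tet3), where 6.55% did. Against 8 dpp, 2 lay wholly below in Prdm9-/- (Dnmt3a and Tet3; 13.4% of all rows). In non-mutants 3 lay below (Dnmt3a, Tet1 and Tet3; 16.5% of all rows) and 1 above (Uhrf1; 18.5%).

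Many of the alternative settings leave out 1 library outside the groups compared, which changes the spread but not the difference itself. The calls of Tet3 and Dnmt3a in Prdm9-/- held under all 39 alternatives. In non-mutants both held under 40 of 41 and were lost with Prdm9+/+ as the only non-mutants, where 12 dpp has 1 library and 0.525% of all rows were called lower (Tet3 -0.77, adjusted p = 0.086; Dnmt3a -0.64, adjusted p = 0.0639; limma). The call of Dnmt3b in non-mutants was lost without Prdm9+/- replicate 2 at 12 dpp (-0.51, adjusted p = 0.0514), without Prdm9+/- replicate 3 at 16 dpp (-0.51, adjusted p = 0.0605), without litter 13 (-0.51, adjusted p = 0.056), with Prdm9+/- as the only non-mutants (-0.55, adjusted p = 0.0986) and with Prdm9+/+ as the only ones (-0.47, adjusted p = 0.563, limma). In Prdm9-/- libraries Dnmt3b was called lower without any 1 of 6 libraries, with adjusted p of 0.0231 to 0.0491 (limma). These were Prdm9-/- replicates 1 and 4 and Prdm9+/+ replicate 1 at 8 dpp, and Prdm9-/- replicate 1 and Prdm9+/- replicates 1 and 3 at 16 dpp. Of them only Prdm9-/- replicate 1 at 16 dpp is in the groups compared (-0.60 without it). Without any of the others the difference of Dnmt3b stayed at -0.51 and only its p-value moved. With every library kept, Dnmt3b was also called in Prdm9-/- with median-ratio scaling (adjusted p = 0.0263), quantile normalization (0.0203), only the compared groups fitted (0.0142) and a filter of a mean of at least 1 TPM (0.0474, limma). Tet2 in non-mutants (adjusted p = 0.051, limma) was called lower without any 1 of 9 libraries, 7 of them from 8 dpp, with adjusted p of 0.0328 to 0.0499. The 9 were replicates 1 and 3 of Prdm9+/+, 1 and 2 of Prdm9+/- and 1, 3 and 5 of Prdm9-/- at 8 dpp, and Prdm9+/- replicate 4 and Prdm9-/- replicate 2 at 12 dpp. Only Prdm9+/- replicate 4 at 12 dpp is in the groups compared (-0.44 without it). Without any of the others the difference of Tet2 stayed at -0.40. Tet2 was called as well with litter as a random replicate block (-0.40, adjusted p = 0.0419), a pseudocount of 0.1 (0.0467), a filter of a mean of at least 1 TPM (0.0476), quantile normalization (0.0325) and only the compared groups fitted (0.0395, limma).

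The size of the fall did not differ detectably between the genotype classes. Of the 8 genes 0 were called for a difference of the 12 to 16 dpp step, where limma called 1.35% of all rows. An unadjusted p under 0.05 was found for 0 of the 8 and for 7.3% of all rows. The step in Prdm9-/- minus that in non-mutants was 0.07 for Dnmt3a (95% interval -0.22 to 0.37), -0.02 for Tet3 (-0.37 to 0.33), 0.06 for Dnmt3b (-0.44 to 0.56) and 0.21 for Tet2 (-0.21 to 0.64). For the 8 to 12 dpp step 0 of the 8 and 0 of all rows were called by limma, and at an unadjusted p under 0.05 there were 0 of the 8 and 1.83% of all rows.

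**Figure D2:**
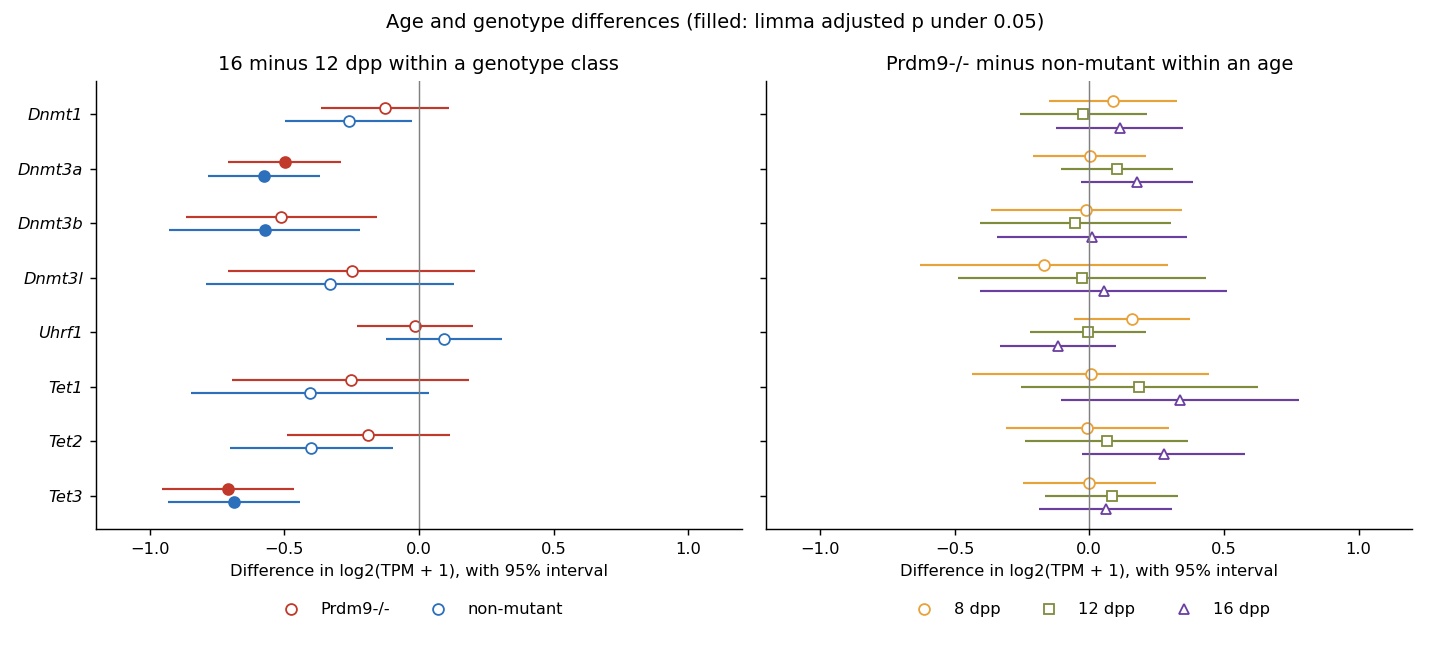
Differences in log2(TPM + 1) with 95% intervals for the 8 genes, at left 16 minus 12 dpp within Prdm9-/- and within non-mutant libraries, at right Prdm9-/- minus non-mutant at 8, 12 and 16 dpp. Filled points passed limma's adjusted p of 0.05, which are Dnmt3a and Tet3 in both classes and Dnmt3b in non-mutants at left, and no point at right.

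Marker lists were followed between 12 and 16 dpp too. Of all rows, 5.89% were called lower and 6.21% higher in Prdm9-/-, and 13% lower and 8.88% higher in non-mutants. Of 9 markers of undifferentiated spermatogonia, 3 were called lower and 1 higher at 16 dpp than at 12 dpp in each class (limma, median difference -0.49 in Prdm9-/- and -0.40 in non-mutants). Their summed level at 16 dpp was 144 to 205 TPM in Prdm9-/- and 153 to 201 TPM in non-mutant libraries, and at 12 dpp 186 to 236 TPM in Prdm9-/- and 162 to 242 TPM in non-mutants. Of 10 Sertoli cell markers, 3 were called lower in Prdm9-/- and 4 in non-mutants, with 12 dpp sums of 7109 to 7634 TPM in Prdm9-/- and 6316 to 7739 TPM in non-mutants. Of 8 early spermatocyte markers, 7 were called higher in Prdm9-/- and 6 in non-mutants, and their sums at 16 dpp were 801 to 1292 TPM in Prdm9-/- and 919 to 1375 TPM in non-mutants, against 12 dpp sums of 322 to 590 TPM in Prdm9-/- and 399 to 628 TPM in non-mutants. Of the 6 pachytene markers that could be tested, 2 were called higher in Prdm9-/- and 6 in non-mutants. Of the full list, 8 had a mean over 1 TPM in non-mutants at 16 dpp, but only 3 in non-mutants at 12 dpp. Some may thus have passed the filter only through the group where they are high, which fixes their direction beforehand. Of 5 macrophage markers 4 were called higher in Prdm9-/- and 2 in non-mutants, with sums at 16 dpp of 52.9 to 73.8 TPM in Prdm9-/- and 35.6 to 59.2 TPM in non-mutants, and at 12 dpp of 26.6 to 49.2 TPM in Prdm9-/- and 25.9 to 47.9 TPM in non-mutants. Of 5 endothelial markers 2 were called lower in non-mutants and 0 in Prdm9-/-, and of 5 Leydig cell markers 1 was called higher in Prdm9-/-. Of 10 cell cycle markers 2 were called higher in each class and 1 lower in non-mutants, with sums at 16 dpp of 761 to 909 TPM in Prdm9-/- and 717 to 873 TPM in non-mutants, and at 12 dpp of 641 to 848 TPM in Prdm9-/- and 649 to 856 TPM in non-mutants. In the lists for differentiating spermatogonia, peritubular myoid cells and erythroid cells 0 were called in either class. None of these lists had a marker at 0 throughout a group. The part of such shifts in the falls of Dnmt3a, Dnmt3b and Tet3 was not tested.

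At 16 dpp litter 2 stood apart. Its Prdm9-/- and its Prdm9+/- library were the highest of their class for Dnmt1, Dnmt3a, Dnmt3b, Uhrf1 and Tet3. They also had the highest sums of their class for undifferentiated spermatogonia markers (205 TPM in the Prdm9-/- and 201 TPM in the Prdm9+/- library) and for cell cycle markers (909 TPM in the Prdm9-/- and 873 TPM in the Prdm9+/- library). The Prdm9+/- library had the lowest pachytene marker sum of the non-mutants, 217 of 217 to 1270 TPM. Without litter 2, an alternative chosen after seeing the data, 3 of the 8 genes were called lower in Prdm9-/-, where 6.4% of all rows were, and 4 in non-mutants, where 16.9% were (limma). Dnmt3b was then called in Prdm9-/- (-0.60, adjusted p = 0.0212) and Dnmt1 in non-mutants (-0.34, adjusted p = 0.0202). Dnmt1 was also called when Prdm9+/- replicate 1 at 16 dpp alone was left out (adjusted p = 0.0276, limma).

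Between 8 and 12 dpp 0 of the 8 genes passed the test in either class, although 29.7% of all rows were called in Prdm9-/- and 32.5% in non-mutants (limma). An unadjusted p under 0.05 was reached by 1 gene in Prdm9-/- (Dnmt3l), where 39.6% of all rows reached it. In non-mutants it was reached by 2 (Dnmt3b and Tet1), against 42% of all rows. No gene of the 8 had separate ranges at the 2 ages, against 16.5% of all rows in Prdm9-/- and 21.2% in non-mutants. Dnmt3l had the difference nearest to a call in Prdm9-/- libraries, 0.58 (95% interval 0.12 to 1.04, adjusted p = 0.0503, limma), and 0.44 in non-mutants (adjusted p = 0.137). Dnmt3b had 0.33 in Prdm9-/- (adjusted p = 0.153) and 0.37 in non-mutants (adjusted p = 0.0987). Tet1 had -0.29 in Prdm9-/- (adjusted p = 0.333) and -0.47 in non-mutants (adjusted p = 0.0944, limma).

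Leaving out the 8 dpp library Prdm9-/- replicate 1 changed this. It was the highest of its group for Dnmt1, Dnmt3a, Dnmt3b, Dnmt3l and Uhrf1 and the lowest for Tet1 and Tet2, and its marker sums were the highest of all 8 dpp libraries for undifferentiated spermatogonia (308 TPM, against at most 203 in the others), differentiating spermatogonia (426 against at most 273) and early spermatocytes (227 against at most 179). Without it Dnmt3l rose by 0.77 (adjusted p = 0.00693, limma) and Dnmt3b by 0.50 (adjusted p = 0.0171, limma) between 8 and 12 dpp in Prdm9-/- libraries. With that library left out 6570 rows were called, against 5948 of 20021 with all libraries. Dnmt3l was also called without Prdm9-/- replicate 1 or 4 at 12 dpp, without Prdm9+/- replicate 2 at 12 dpp, and without Prdm9+/+ replicate 1 or Prdm9+/- replicate 2 at 16 dpp, with adjusted p of 0.0186 to 0.0488 (limma). The non-mutant libraries among these are outside the groups compared, and without any of them the difference of Dnmt3l stayed at 0.58. Between 5116 and 5929 rows were called when 1 of the libraries just named was left out. In non-mutants Tet1 was called lower at 12 dpp without Prdm9+/- replicate 4 (-0.61, adjusted p = 0.0368, limma) and without the whole of its litter 13 (-0.61, adjusted p = 0.0418, limma). Rows called numbered 5583 without that replicate and 5445 without the litter.

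Across genotypes, 0 of the 8 genes were called at 8, 12 or 16 dpp. By limma over all rows, 0 were called at 8 and at 12 dpp, and 3.26% at 16 dpp, 2.75% lower and 0.509% higher in Prdm9-/-. At an unadjusted p under 0.05 there were likewise 0 of the 8 at each age, where 2.08% of all rows passed at 8 dpp, 1.12% at 12 dpp and 12.4% at 16 dpp. At 16 dpp the Prdm9-/- minus non-mutant difference was 0.34 for Tet1 (95% interval -0.10 to 0.78, adjusted p = 0.568, limma), 0.28 for Tet2 (-0.03 to 0.58, adjusted p = 0.465), 0.18 for Dnmt3a (-0.03 to 0.38, adjusted p = 0.51) and 0.11 for Dnmt1 (-0.12 to 0.35, adjusted p = 0.749). Uhrf1 had -0.11 (-0.33 to 0.10, adjusted p = 0.721, limma), and Tet3, Dnmt3l and Dnmt3b lay between 0.01 and 0.06. The sign of these small differences depended on the settings. Uhrf1 was at 0.068 with Prdm9+/+ as the only non-mutants and Dnmt1 at -0.013 with Prdm9+/- as the only ones. Tet3, Dnmt3l and Dnmt3b were below 0 with median-ratio scaling and under some other alternatives. The median over the 8 genes was 0.087, against 0.074 over all rows. These intervals allow a difference of up to 0.78 on the log2 scale for Tet1 and of up to 0.38 for Dnmt3a.

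Tet2 was the 1 gene of the 8 whose classes did not overlap at 16 dpp, where 2.07% of all rows lay wholly higher and 4.35% either way. The 10 libraries at 16 dpp formed 5 pairs of litter mates. Tet2 was higher in the Prdm9-/- mate in 5 of 5 litters, by a ratio of 1.22 to 1.29, and Dnmt3a in 5 of 5, by 1.01 to 1.27, where 15.2% of all rows were higher in every litter. Tet1 was higher in 4 of 5, with ratios from 0.857 to 2.11, and Uhrf1 in 1 of 5, with ratios from 0.833 to 1.05. Dnmt1 was higher in 4 of 5, Tet3 in 3, Dnmt3b in 2 and Dnmt3l in 2. With litter as a fixed replicate block the difference of Tet2 had an adjusted p of 0.165 and that of Dnmt3a one of 0.2 (limma), and 0 of the 8 were called.

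**Figure D3:**
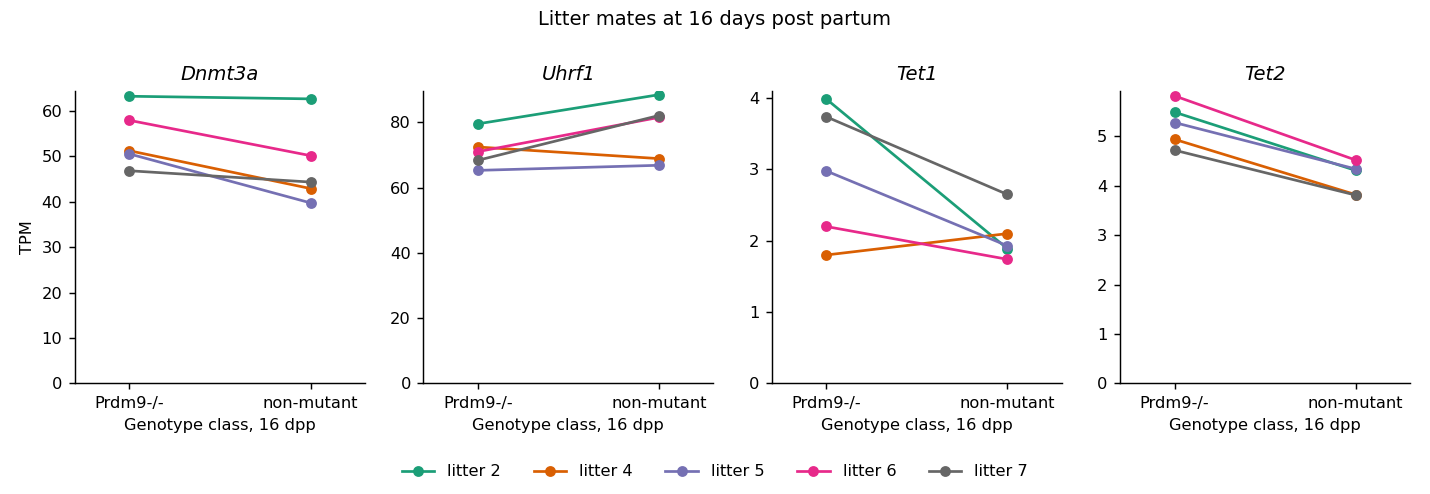
TPM (vertical axis, from 0) of Dnmt3a, Uhrf1, Tet1 and Tet2 at 16 dpp in the Prdm9-/- library of each of 5 litters, at left, joined to its non-mutant litter mate, at right. All 5 lines of Tet2 and of Dnmt3a are higher on the Prdm9-/- side, 4 of 5 for Tet1 and 1 of 5 for Uhrf1.

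Marker levels differed between the classes at 16 dpp too. All 6 pachytene spermatocyte markers that could be tested were called lower in Prdm9-/- (limma, median difference -3.45), and the sums over the list of 8 were 93.4 to 127 TPM in Prdm9-/- and 217 to 1270 TPM in non-mutant libraries. A mean over 1 TPM was reached by 4 of the list in Prdm9-/- and by 8 in non-mutants. Some of the 6 may have passed the filter only through the non-mutant group, which fixes the direction of their calls beforehand. Summed macrophage markers were at 52.9 to 73.8 TPM in Prdm9-/- and 35.6 to 59.2 TPM in non-mutants, and 0 of those 5 were called. Erythroid marker sums were at 191 to 720 TPM in Prdm9-/- and 94.3 to 463 TPM in non-mutants (median difference 0.97), and Leydig cell marker sums at 155 to 468 TPM in Prdm9-/- and 93.5 to 353 TPM in non-mutants (median difference 0.69), with 0 called in either list or in the other lists. Their part in the values of Tet2 and Tet1 was not tested.

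Between the non-mutant genotypes, Prdm9+/- minus Prdm9+/+ over the 3 ages with age as a factor, 0 of the 8 genes and 0 of all 18668 rows were called by limma. At an unadjusted p under 0.05 there were 3 of the 8, where 10.6% of all rows passed. They were Dnmt3a with a difference of 0.21 (95% interval 0.04 to 0.39, adjusted p = 0.413, limma), Dnmt1 with 0.19 (0.01 to 0.37, adjusted p = 0.459) and Uhrf1 with 0.16 (0.03 to 0.30, adjusted p = 0.409), all higher in Prdm9+/-. No litter held libraries of both genotypes, and 2 Prdm9+/+ libraries shared litter 8, so genotype and litter cannot be told apart here. The median was 0.16 over the 8 genes and 0.087 over all rows.

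The balance between members shifted with age. The ratio of Dnmt1 to Dnmt3a in the same library averaged 1.14 ± 0.10 at 8 dpp, 1.27 ± 0.16 at 12 dpp and 1.64 ± 0.11 at 16 dpp in Prdm9-/-. In non-mutants it averaged 1.07 ± 0.10 at 8 dpp, 1.37 ± 0.11 at 12 dpp and 1.71 ± 0.10 at 16 dpp (SD, n = 5 each). At 16 dpp it was between 1.49 and 1.72 in Prdm9-/- and between 1.62 and 1.87 in non-mutants, above every 8 and 12 dpp library of its class. Dnmt1 over Uhrf1 was 1.34, 1.33 and 1.23 in Prdm9-/- at 8, 12 and 16 dpp and 1.41, 1.35 and 1.05 in non-mutants. At 16 dpp its ranges, 1.16 to 1.37 in Prdm9-/- and 0.999 to 1.16 in non-mutants, overlapped at their ends. Dnmt3b made up 27.4% of the summed Dnmt3a and Dnmt3b TPM at 8 dpp, 33.7% at 12 dpp and 33.4% at 16 dpp in Prdm9-/-, and 27.5%, 36.2% and 36.0% in non-mutants. Tet3 over Tet1 varied most between animals, from 6.07 to 16.6 in Prdm9-/- and from 6.42 to 27.4 in non-mutant libraries. Summed TPM of Tet1, Tet2 and Tet3 averaged 37.3 ± 5.69 in Prdm9-/- and 34.0 ± 4.71 in non-mutants at 16 dpp, and at 12 dpp 57.5 ± 5.79 in Prdm9-/- and 54.2 ± 7.28 in non-mutants (SD, n = 5 each). These ratios and sums are descriptions without a test.

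**Figure D4:**
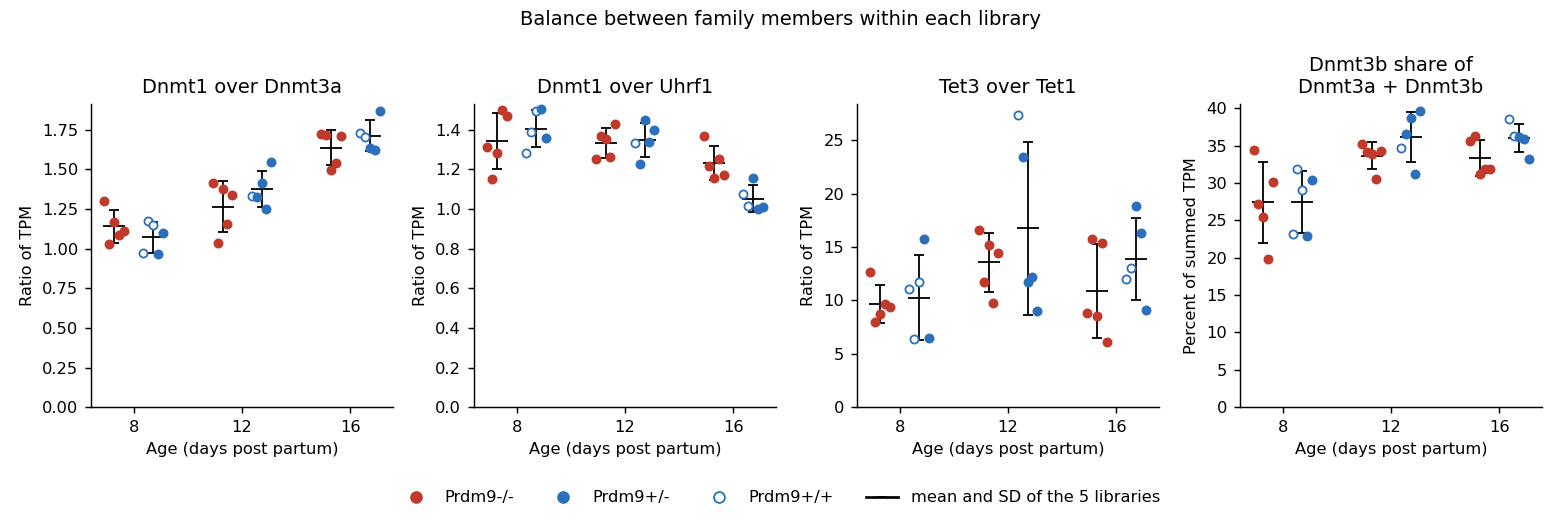
Ratios of TPM within a library for Dnmt1 over Dnmt3a, Dnmt1 over Uhrf1 and Tet3 over Tet1, and the percent of summed Dnmt3a and Dnmt3b that is Dnmt3b (vertical axes, from 0), against age in days post partum, 1 point per library with the mean and SD of each group of 5. Dnmt1 over Dnmt3a is highest at 16 dpp, at 1.49 to 1.87 over both classes.

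Dnmt3a and Tet3 had the closest profiles of any 2 of the 8 genes. The root mean square distance between their log2(TPM + 1) values over the 30 libraries, each centred on its own mean, was 0.13, followed by 0.17 for Dnmt1 and Uhrf1, against up to 0.63 for Dnmt3l and Tet1. Among 13422 annotated genes, those nearest to Dnmt3a were Cic and Rxra (0.096 and 0.11), and to Tet3 Bcr and Arhgef12 (0.12 each). Nearest to Dnmt1 were Pan2 and Gon4l (0.092 and 0.093), and to Uhrf1 Tubb4b and Kars (0.092 and 0.10). Dnmt3b lay nearest to Cbx2 and Sipa1l1 (0.14 each) and Tet2 to Aldh3a2 and Sspn (0.14 each). Tet1 lay nearest to Kcns3 and Zdhhc15 (0.26 each) and Dnmt3l to Zfp790 and Wdr91 (0.29 each). Distances are smaller for genes that vary little, and the libraries share age and litter, so they are descriptions only.

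Genes that work beside these enzymes were followed in 6 lists. Of 7 TET partners and enzymes supplying the TET cofactor alpha-ketoglutarate, 3 fell between 12 and 16 dpp in Prdm9-/- and 5 in non-mutants, and 0 rose (limma). As above, 5.89% of all rows were called lower in Prdm9-/- and 13% in non-mutants, which is also the background of the lists that follow. Cxxc5, a CXXC-domain protein of the family that binds TET2, fell by 0.99 in Prdm9-/- (SE 0.16, adjusted p = 7.37e-05) and by 1.04 in non-mutants (SE 0.16, adjusted p = 1.4e-05, limma). Cxxc4 fell by 0.77 in Prdm9-/- and by 0.52 in non-mutants, and Ogt, the O-GlcNAc transferase that binds TET proteins, fell by 0.41 in Prdm9-/- and by 0.78 in non-mutants. Idh2 fell by 0.42 and Hcfc1 by 0.34 in non-mutants. The list's median difference was -0.41 in Prdm9-/- and -0.42 in non-mutants.

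Of 14 partners of the methyltransferases, 2 fell in Prdm9-/- between 12 and 16 dpp and 3 in non-mutants, and 0 rose (limma). Dppa3, an inhibitor of UHRF1, fell by 0.84 in Prdm9-/- (SE 0.26, adjusted p = 0.029, limma). Cdca7l fell by 0.38 in Prdm9-/- (adjusted p = 0.0378) and by 0.58 in non-mutants (adjusted p = 0.000742, limma). Zfp57, a zinc finger protein that keeps imprints methylated, fell by 0.53, and Nsd1, whose histone mark guides DNMT3A, fell by 0.37, both in non-mutants. Among readers of methylated CpG, Zbtb33 fell by 0.32 in Prdm9-/- and by 0.50 in non-mutants, and Mbd2 fell by 0.19 in non-mutants. Of 14 genes of oxidised base removal and base excision repair, Tdg, the glycosylase that removes the TET products, fell by 0.31 in Prdm9-/- (adjusted p = 0.0085) and by 0.34 in non-mutants (adjusted p = 0.00201, limma), and Polb rose by 0.50 in non-mutants. Of 9 genes of methyl donor supply 2 fell in Prdm9-/- (Shmt2 by 0.31 and Mat2b by 0.22) and 3 in non-mutants (Mat2b by 0.33, Shmt2 by 0.31 and Ahcy by 0.15).

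The piRNA pathway genes needed for transposon methylation in fetal male germ cells were called in the other direction in non-mutants. Of 11 in the list, 5 rose in non-mutants between 12 and 16 dpp and 0 fell, where 8.88% of all rows rose, led by Tdrd9 (0.73, SE 0.20, adjusted p = 0.00883, limma), Tdrd1 (0.71), Ddx4 (0.67) and Mael (0.60). In Prdm9-/- 0 rose and 1 fell (Morc1, by 0.50). At 16 dpp 3 of the 11 were lower in Prdm9-/- than in non-mutants, where 2.75% of all rows were: Pld6 (-0.90, SE 0.20, adjusted p = 0.0062), Tdrd1 (-0.77, SE 0.18, adjusted p = 0.0112) and Ddx4 (-0.61, SE 0.16, adjusted p = 0.0276, limma), with a list median of -0.45 against 0.074 over all rows. Polb, of base excision repair, was the only other gene of the 6 lists called between the classes at 16 dpp (-0.40, SE 0.11, adjusted p = 0.034, limma), and at 8 and 12 dpp 0 were called. No gene of the 6 lists was called for a difference of steps between the classes. Spermatocyte markers moved with this list. From 12 to 16 dpp in non-mutants 6 of 8 early and 6 of 6 pachytene markers were called higher. At 16 dpp 6 of 6 pachytene markers were called lower in Prdm9-/- (median difference -3.45). As above, the filter may have fixed the direction of some of these pachytene calls. The part of spermatocyte markers in the piRNA list was not tested. The median of the piRNA list differed by -0.39 in the 12 to 16 dpp step, against 0.07 over all rows.

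**Figure D5:**
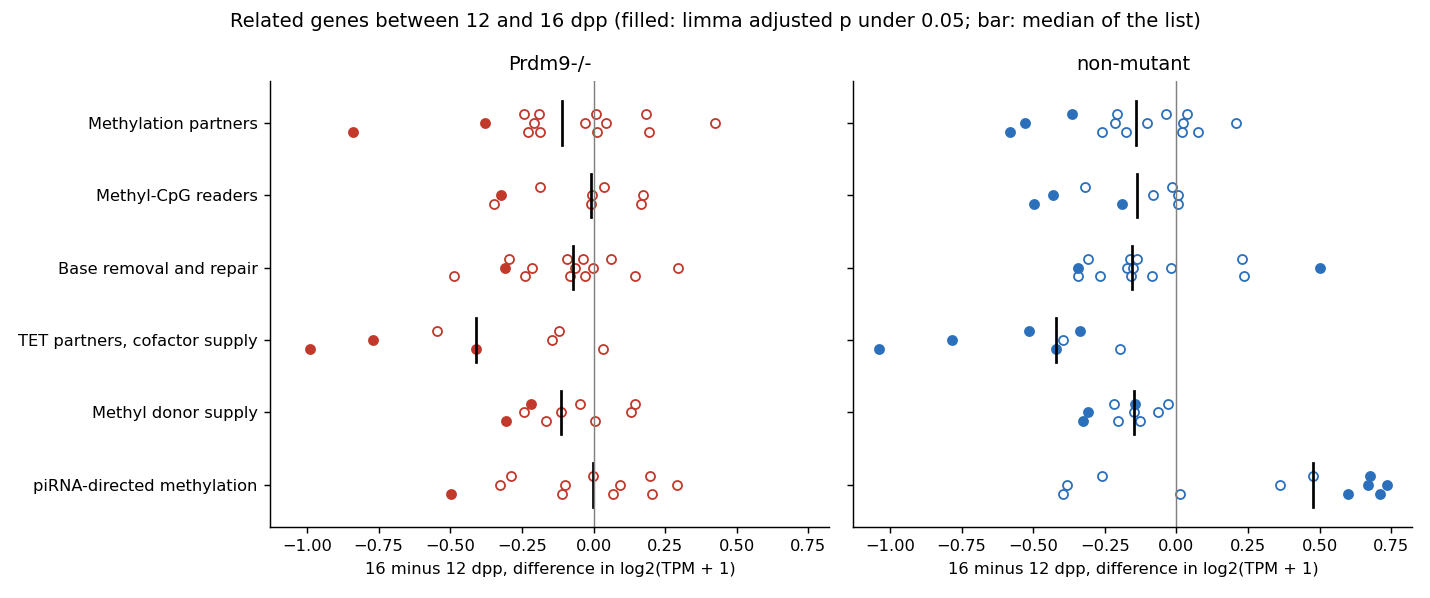
Difference in log2(TPM + 1), 16 minus 12 dpp, of each gene in 6 lists of related genes, at left in Prdm9-/- and at right in non-mutant libraries, where filled points passed limma's adjusted p of 0.05 and the bar is the median of the list. TET partners and cofactor supply have the lowest median in both panels, -0.41 in Prdm9-/- and -0.42 in non-mutants, and piRNA-directed methylation has the highest in non-mutants, 0.48.

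Between 8 and 12 dpp the related lists were read against 29.7% of all rows called either way in Prdm9-/- and 32.5% in non-mutants. With median-ratio scaling, 14.1% were called higher and 15.6% lower in Prdm9-/-, and 14.2% higher and 17.3% lower in non-mutants. Of the 14 partners 4 rose and 2 fell in Prdm9-/- and 5 rose and 1 fell in non-mutants (limma). Hells, the remodelling factor that opens DNA to methylation, rose by 0.52 in Prdm9-/- and by 0.72 in non-mutants, and Dppa3 rose by 1.10 in Prdm9-/- and by 0.96 in non-mutants. Of the 11 piRNA genes 6 rose in Prdm9-/- and 7 in non-mutants, with Tex15 rising by 1.40 in Prdm9-/- and by 1.86 in non-mutants. Of the TET partner and cofactor list 3 fell in each class, Idh2 by 1.29 in Prdm9-/- and by 1.16 in non-mutants. Neil3, a DNA glycosylase, fell by 1.43 in Prdm9-/- (adjusted p = 6.1e-07) and by 1.51 in non-mutants (adjusted p = 3.32e-07, limma). Early spermatocyte marker sums at 12 dpp were 322 to 590 TPM in Prdm9-/- and 399 to 628 TPM in non-mutants, against 8 dpp sums of 81.8 to 227 TPM in Prdm9-/- and 75.2 to 179 TPM in non-mutants, and their part in these changes was not tested.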

How the data were processed

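Polyadenylated RNA of enriched germ cells was measured in 30 libraries. The authors deposited TPM per gene in 1 table of 65534 rows. Bowtie 1.0.0, RSEM 1.2.8 and GRCm38 (mm10) are named in the submitters' processing notes, with no role or order given. Between 3.23 and 3.95% of each library's TPM lies outside the table held. Symbols and positions came from GENCODE M21, and 37709 of 38906 Ensembl rows had a symbol.

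No counts are held, so values of log2(TPM + 1) were fitted with limma (version 3.58.1 in R 4.3.3, trended variance) for rows over 1 TPM in at least 5 libraries. A fold change on this scale understates the change of low genes. One fit of 6 groups gave the genotype, age and step contrasts over 20021 rows, and Prdm9+/- was set against Prdm9+/+ in a fit of 18668 rows that held age as a factor. Adjustment was by Benjamini and Hochberg over all rows tested. The members, the gene lists and the marker lists were chosen with earlier results of these data known. Named are the 8 members, up to 4 called genes of each other list with the smallest adjusted p, Prdm9, and the 2 nearest profiles of each member. Dnmt3c falls outside that rule and was chosen after its values were seen. The result of a further listed gene is not reported here.

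Litters are named in the table's header line. Deviations from the group mean of 17 pairs of litter mates, Prdm9-/- with non-mutant, correlated at 0.0628 to 0.39 (median 0.22, 13 over 0.1), against a median of -0.0836 for other litters. Litter was tried as a replicate block, fixed within an age or random. Other alternatives changed the pseudocount (0.1), the filter, the scaling, the libraries fitted, the non-mutant genotype, and left out litter 13, litter 2 or each library. P-values of the main fit measure the spread between animals within a group, pooled over the 6 groups and drawn towards a trend over all rows. They take no account of litter, whose correlation in the random block was 0.294.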

Additional observations from a re-analysis of the deposited data

Results flagged for a closer look

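In 48 groups of 5 libraries, a single library stood apart from its group by Dixon's criterion in 2, where chance gives about 1 in 20 groups, or 2.4 of 48. Tet1 in Prdm9-/- replicate 1 at 8 dpp was at 3.71 TPM, below the next library at 4.69 TPM, in a group that reached 5.09 TPM. It is the library that was the highest of its group for Dnmt1, Dnmt3a, Dnmt3b, Dnmt3l and Uhrf1. Tet2 in Prdm9-/- replicate 2 at 12 dpp was at 8.17 TPM, above the next library at 6.06 TPM, in a group that began at 5.21 TPM. In both cases the gap was 0.71 of the range of the group.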

How the results depend on the processing

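For each of the 3 genotype comparisons, 0 of the 8 genes were called under every one of the 41 other settings tried, each library left out in turn included, and at 16 dpp also without litter 2. The same holds for Prdm9+/- minus Prdm9+/+ and for the differences of steps under the settings run for them. With litter as a fixed or a random replicate block 0 were called between genotypes. With litter as a random block the falls from 12 to 16 dpp numbered 2 in Prdm9-/-, where 6.03% of all rows were called lower. In non-mutants they numbered 4, where 13.3% were called lower. The fourth was Tet2, and the pairing changed no other call. Falls from 12 to 16 dpp in non-mutants, 3 of 8 in the report, numbered 0 with Prdm9+/+ as the only non-mutants, where the share of all rows called either way was 1.9% against 21.8%, 4 with a pseudocount of 0.1, a filter of a mean of at least 1 TPM, quantile normalization or only the compared groups fitted, and 2 to 4 when 1 library was left out. Under the named settings that gave 4, between 12.5 and 14.7% of all rows were called lower. In Prdm9-/- the falls numbered 2, and 3 with median-ratio scaling, quantile normalization, only the compared groups fitted or a filter of a mean of at least 1 TPM. Dnmt3b was added in each, and between 6.16 and 8.14% of all rows were called lower there. Without 1 library the falls in Prdm9-/- numbered 2 to 3. From 8 to 12 dpp 0 were called. In non-mutants this became 2 with median-ratio scaling, where 14.2% of all rows were called higher and 17.3% lower. It also became 2 with quantile normalization, where 16.2% were called higher and 15.2% lower. In each case these were Dnmt3a and Tet1, lower. With only the compared groups fitted it was 2 (Dnmt3b and Uhrf1, higher), where 5806 rows were called, against 6497 of 20021 in the main fit. Without litter 13 it was 1 (Tet1), where 5445 of 19884 rows were called. Leaving out 1 library gave 0 to 1, and 5583 rows were called where it was 1. With Prdm9+/+ alone, which leaves 1 library at 12 dpp, the difference of Tet1 was -1.1. In Prdm9-/- the number called became 1 with a pseudocount of 0.1, where 5941 of 20021 rows were called. It was 1 with a filter of a mean of at least 1 TPM, where 5796 of 17902 rows were called. In each case this was Dnmt3l, higher. Without 1 library 0 to 2 were called, and where any was called 5116 to 6570 rows were. Over 80 values of single genes and 3072 alternative values, 7 calls were lost, 45 were gained and 0 called values changed sign, while 137 values of uncalled differences did, and the cause was not tested. Read depth is not known from TPM, so Dnmt3l, Tet1 and Tet2, at a few TPM, are the least certain.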
